A study of Mus musculus with 14 samples.

Results

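The γ and δ receptor genes described here were Trdc, Tcrg-C1, Tcrg-C2, Tcrg-C4 and Trgv2, taken by symbol as 5 of the 32285 genes of the RNA matrices. Trdc is the δ chain constant gene, Tcrg-C1, Tcrg-C2 and Tcrg-C4 are γ chain constant genes, and Trgv2 is a γ chain variable segment. They were picked because earlier results of these data had shown γ RNA in T clones and in erythroid-like cells, so the levels in those cells are given as a description and without a test. The nodules came from 7 cKO mice on a C57BL/6J background (Eif3e fl/fl Cγ1Cre Rosa26-YFP LSL), in which Cre is expressed from the Ighg1 locus and removes the translation factor gene Eif3e from activated B cells. All 7 mice carried these alleles, and nodules of control mice were not analysed here. T cells are not the cell type that Cγ1Cre targets.

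Single-cell RNA was measured in all cells of each white nodule, and a single-cell receptor library of the same nodule covered either B cell receptors (BCR mice) or T cell receptors (TCR mice). Of the 5 BCR mice, mouse 34 was the youngest, at 9 mo, with nodules of lung and thymus. Mouse 27 (liver) and mouse 29 (lung) were 12 mo old. Mouse 31 (spleen) was 13 mo old and the thymus nodule of mouse 33 was taken at 16 mo. The nodule of mouse 27 was a secondary tumor grown in a Rag2-/- recipient, a host without B or T cells of its own, and the other nodules were primary. The 2 TCR mice were mouse 30 (liver, 14 mo) and mouse 32 (spleen, 12 mo). Each nodule was 1 library of 1 mouse, so tissue, age and mouse cannot be told apart.

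γδ T cells carry a receptor made of a rearranged γ and a rearranged δ chain, whereas most T cells carry an αβ receptor. Trdc lies inside the α chain locus, between the Vα and the Jα segments, so a Vα-to-Jα rearrangement removes it from that chromosome. The γ locus is a separate locus and is often rearranged and transcribed in T cells that end up with an αβ receptor, including Trgv2 joined to Tcrg-C2. γ RNA alone therefore does not mark a γδ T cell, and Trdc RNA is the closer marker. Cells in the erythroid lineage are not known for an antigen receptor.

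In the RefSeq annotation of GRCm38, the build named in the submitters' processing notes, Trgv2 is a V segment at chr13:19336573-19337026. It lies between the constant genes Tcrg-C2 at chr13:19305060-19307551 and Tcrg-C4 at chr13:19344558-19352343, nearer to Tcrg-C4. Tcrg-C1, with its own V segments and the joining segment Trgj1, is at chr13:19214103-19216618. Trdc is at chr14:54142851-54146108. Tcrg-C1, Tcrg-C2 and Tcrg-C3 are close copies of each other, as are Trgv2, Tcrg-V1 and Tcrg-V3. How reads that match several copies were counted is not given in the sources used here, so the split between these copies is uncertain.

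The T clones of both TCR mice were defined by αβ chains. Their CDR3 sequences, the junctions that identify each clone, are shown because the γ RNA below was measured in cells with these αβ receptors. The capitals mark the CDR3 without its first and last codon, 5′ to 3′.
Mouse 30, TRBV1 with TRBJ2-1: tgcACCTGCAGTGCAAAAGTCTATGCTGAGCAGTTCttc
Mouse 30, TRAV9-2 with TRAJ21: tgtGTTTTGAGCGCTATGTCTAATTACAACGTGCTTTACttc
Mouse 32, TRBV26 with TRBJ2-5: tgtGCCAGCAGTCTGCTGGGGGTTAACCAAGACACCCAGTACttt
Mouse 32, TRAV6N-7 with TRAJ30: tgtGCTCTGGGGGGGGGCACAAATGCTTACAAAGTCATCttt
Mouse 32, TRAV14D-3-DV8 with TRAJ17: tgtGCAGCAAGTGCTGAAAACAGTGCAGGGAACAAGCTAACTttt
In mouse 30, the β chain was read in 1963 of the 2107 clone cells that passed the cell filter, and the α chain in 1089. In mouse 32, the β chain was read in 4754 of 4928 clone cells, and 2386 clone cells held both α chains. The receptor files of the 7 mice held 0 γ or δ contigs, and how the enrichment treated γ and δ transcripts was not tested.

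The RNA matrices held 77442 cells, of which 75503 passed the filter, with 19264039 to 123456962 UMIs (counted RNA molecules) per library and a median of 1364 to 5319 UMIs per filtered cell. Barcodes shared by any pair of libraries made up at most 2.28% of the smaller one. Cells were grouped into clusters without the antigen receptor genes, and clusters were called T-like or erythroid-like by marker genes. A UMI of Cd3d, Cd3e or Cd3g, which mark T cells, was in 80.3% to 92.4% of the T-like cells of mice 27, 31, 33 and 34, but in 42.9% of those of mouse 29. Levels below are CPM, the UMIs of a gene scaled in the standard way to all UMIs summed over a cell set of 1 mouse. A CPM cannot separate fewer cells with the RNA from less RNA per cell. Each CPM is followed, where given, by its 95% exact Poisson interval, which covers counting error only.

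The 5 genes differed in where their UMIs lay. Tcrg-C1 had the most UMIs, 20053, and 95.8% of them were in the 4149 erythroid-like cells. Trgv2 had 5943 UMIs, Tcrg-C2 1615 and Tcrg-C4 910, and these 3 genes were read mainly in T-like cells: erythroid-like cells held 0.471%, 2.04% and 0.330% of them. Trdc was rare, with 191 UMIs in all 75503 cells. The γ and δ loci hold 36 genes in the matrices, and 16 genes other than the 5 reached 50 UMIs.

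**Figure D1:**
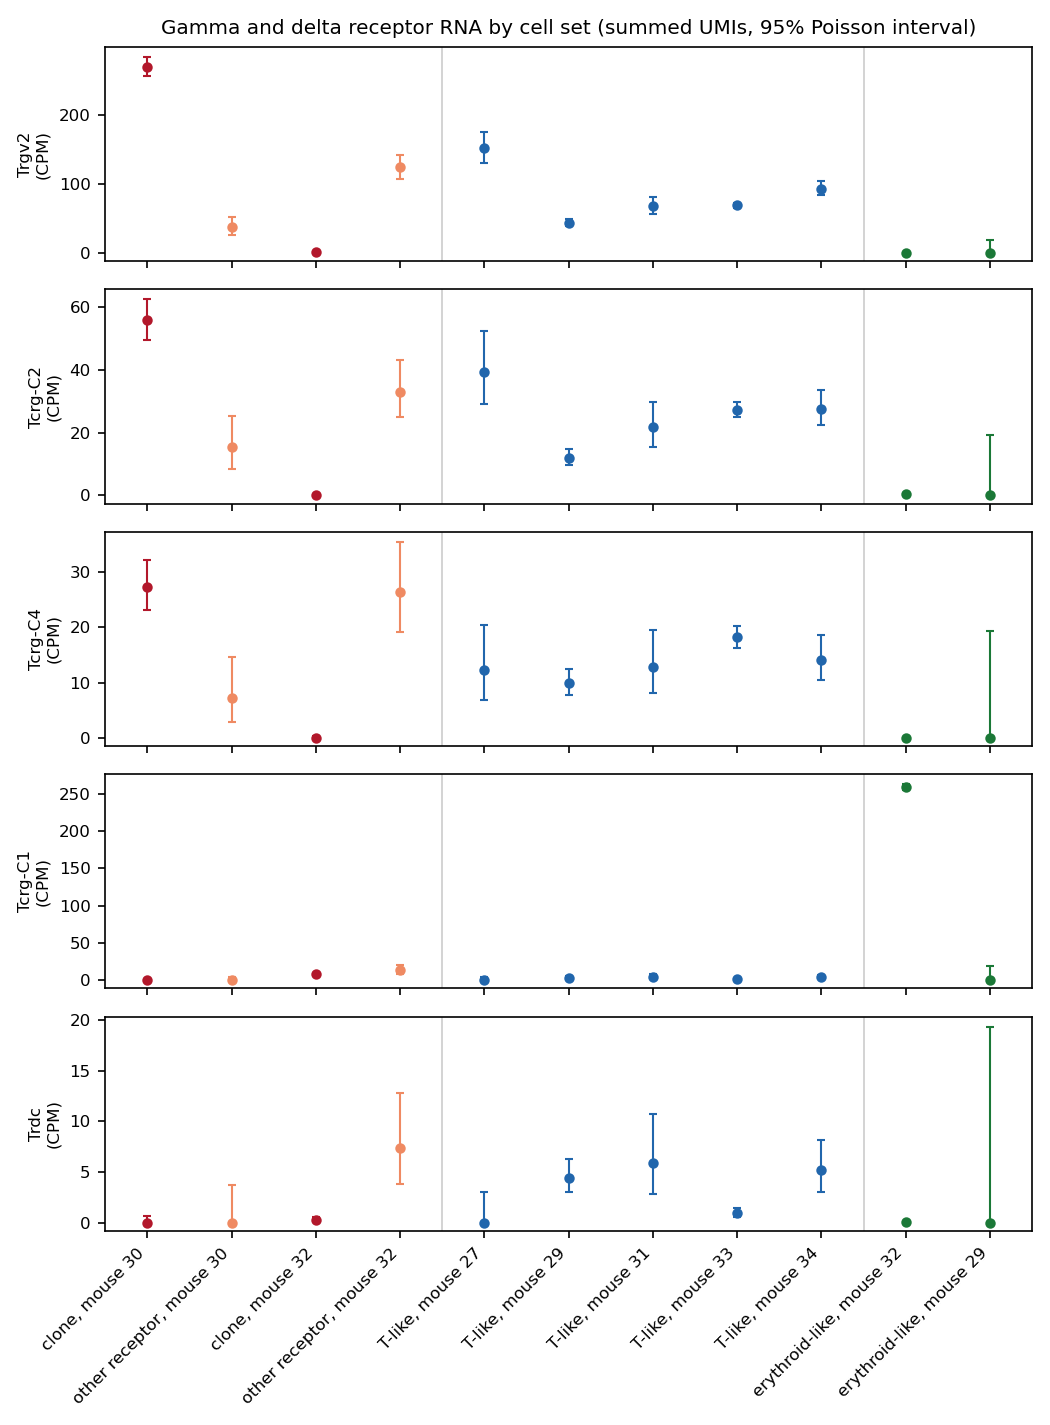
Level of each gene in CPM (linear axes from 0, each gene with its own scale) in the T clones and the T-like cells with another receptor of mice 30 and 32, the T-like cells of the 5 BCR mice, and the erythroid-like cells of mice 32 and 29. Points are CPM of summed UMIs of 1 mouse and bars the 95% exact Poisson interval; Trgv2, Tcrg-C2 and Tcrg-C4 are high in the clone of mouse 30 and near 0 in the clone of mouse 32, and Tcrg-C1 is high in the erythroid-like cells of mouse 32.

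The clone of mouse 30 carried γ RNA of the Trgv2 and Tcrg-C2 type. Among its 2090 cells in T-like clusters, Trgv2 stood at 270.0 CPM (256 to 284), Tcrg-C2 at 55.8 CPM (49.6 to 62.5) and Tcrg-C4 at 27.3 CPM (23.1 to 32.2). Tcrg-C1 gave a single UMI, and Trdc gave 0 UMIs, which allows up to 0.565 CPM at 3 counts. Trgv2 RNA was in 27.4% of the clone cells, and in 18.3% after the 1987 cells with at least 1000 UMIs were thinned to that number. In other cells of the same library, Trgv2 was at 17.6 CPM in neutrophil-like cells (3.07% of cells, median 1671.5 UMIs) and at 6.21 CPM in phagocyte-like cells (2.53%, median 3507.5 UMIs), and the 72 B-like cells held none. In the B-like cells of the BCR mice 0.0543% to 0.742% held one at a median of 2751 to 8056 UMIs per cell.

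Trgv2 supplied most γ variable RNA of this clone. It made up 93.3% (exact 95% interval 91.9% to 94.5%) of the γ V segment UMIs, and Tcrg-V1, a related segment, gave 93 UMIs against 1433 of Trgv2. The clone held 347.5 γ V UMIs per 100 γ constant UMIs. This ratio depends on whether the libraries read the 3′ or the 5′ end of RNA, so it is compared only between cell sets. The paper names a 3′ kit for RNA libraries and a 5′ kit for receptor libraries. Barcodes of the receptor library were also in the RNA matrix for 2503 of 2513 cells in mouse 30 and 5399 of 5451 in mouse 32. Which end the nodule RNA libraries read was not tested. The clone cells with a Trgv2 UMI had Tcrg-C2 at 153.8 CPM, and the clone cells without one had 12.7 CPM. Tcrg-C4 showed the same split, at 72.3 and 7.59 CPM, while Trac, the α constant gene, stood at 112 and 124 CPM.

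The clone of mouse 32 had almost none of this RNA. Among its 4596 cells in T-like clusters, Trgv2 gave 12 UMIs (0.580 CPM, 0.300 to 1.01), Tcrg-C2 gave 5 (0.242 CPM) and Tcrg-C4 gave 1 (0.0483 CPM). These cells were read more deeply than the mouse 30 clone, with a median of 3610.5 against 1984 UMIs per cell. Tcrg-C1 was the γ constant gene with the most UMIs, at 8.16 CPM (6.98 to 9.49), against 25.1 CPM in neutrophil-like cells and 11.5 CPM in phagocyte-like cells of the same library. Trdc gave 5 UMIs, or 0.242 CPM.

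T-like cells with another αβ receptor had less Trgv2 RNA than the clone in mouse 30 and more than the clone in mouse 32. In mouse 30, 394 such cells had Trgv2 at 37.7 CPM (26.5 to 51.9), above the 17.6 CPM (12.6 to 23.9) of neutrophil-like cells and below the 270.0 CPM of the clone beside them. In mouse 32, 448 such cells had Trgv2 at 124 CPM (108 to 143), Tcrg-C2 at 33.1 CPM and Tcrg-C4 at 26.3 CPM, all above the clone. These intervals do not overlap, but each compares cells of 1 library with 1 clone, so no test between conditions was possible. The T-like cells with another receptor also differed in coreceptor RNA. In mouse 30, 24 of them had RNA of Cd8a or Cd8b1, coreceptor genes of cytotoxic T cells, and none of Cd4. The reverse, RNA of Cd4 alone, was found in 126. In mouse 32 these numbers were 149 and 60. How far this bears on the Trgv2 levels was not tested. T-like cells without a receptor call, which may hold clone cells, had Trgv2 at 172.9 CPM (164 to 182) in mouse 30 and at 27.8 CPM (23.9 to 32.3) in mouse 32.

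Single clonotypes of these libraries ranged from no Trgv2 UMI to a level above the mouse 30 clone. Of 5 other clonotypes with at least 10 cells in mouse 30, 3 held a Trgv2 UMI, with levels from 0 to 76.3 CPM and a median of 11.2 CPM. Of 7 such clonotypes in mouse 32, 5 held one, with levels up to 406 CPM and a median of 187 CPM. The clonotype with the highest level had 11 cells and 13 Trgv2 UMIs, so its interval ran from 216 to 694 CPM. The clonotypes without a Trgv2 UMI had 10 to 27 cells, and the upper bound of the exact Poisson interval was 62.1 CPM in the largest of them.

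**Figure D2:**
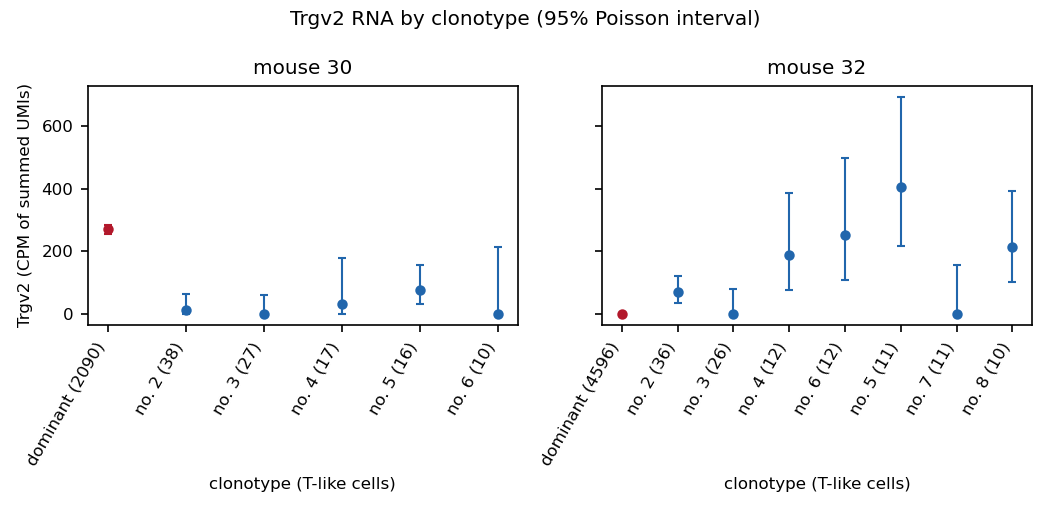
Trgv2 level in CPM (linear axis) of the dominant clone and of each other clonotype with at least 10 T-like cells in mice 30 and 32, with the number of cells in brackets and 95% exact Poisson intervals as bars. The dominant clone is at 270.0 CPM in mouse 30, above the other 5 clonotypes, and at 0.580 CPM in mouse 32, where 5 of 7 others are at 69.1 to 406 CPM.

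Both clones were of the Cd4 type by RNA. The mouse 30 clone had 965 UMIs of Cd4, the coreceptor of helper T cells, against 10 of Cd8a and Cd8b1, the coreceptor genes of cytotoxic T cells. The mouse 32 clone had 4407 against 45. A Cd4 coreceptor was therefore shared by the clone with the higher Trgv2 level and by the clone almost without it.

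The δ locus shares V segments with the α locus, and these were read in both clones. In mouse 32, Trav14d-3-dv8, the V segment of the second α chain printed above, stood at 761 CPM (749 to 773), against 39.8 CPM in T-like cells with another receptor. Trav6-7-dv9, a close relative of the TRAV6N-7 segment of the first α chain, stood at 70.1 CPM in this clone and at 3.06 CPM in the other cells, and reads of such relatives can be split. In mouse 30, Trdv1, a V segment used by δ chains, stood at 34.1 CPM (29.3 to 39.5) in the clone and at 8.14 CPM (3.51 to 16.0) in the other cells, and its neighbour Trav21-dv12 stood at 62.2 and 52.9 CPM. Trdc was at 0 UMIs in the same clone cells, so this V segment RNA was not accompanied by δ constant RNA.

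T-like cells of the BCR mice carried the same γ genes. In mice 27, 29, 31, 33 and 34, Trgv2 was at 152, 44.1, 68.0, 68.8 and 93.2 CPM. Tcrg-C2 was at 39.5, 12.1, 21.7, 27.3 and 27.6 CPM, and Tcrg-C4 at 12.3, 9.90, 12.9, 18.2 and 14.1 CPM in the same order of mice. Mouse 27 was highest in Trgv2 and Tcrg-C2 and mouse 29, whose T-like clusters held the fewest cells with Cd3 RNA, was lowest in all 3 genes. The Poisson intervals of mice 31 and 33 overlapped for Trgv2, as did those of mice 27, 31, 33 and 34 with each other for Tcrg-C2.

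In each of the 5 BCR mice, Tcrg-C2 RNA went with Trgv2 RNA within the T-like cells. Cells with a Trgv2 UMI had Tcrg-C2 at 90.1 to 181 CPM, and cells without one had 5.27 to 16.6 CPM. Trgv2 made up 73.1% to 89.8% of the γ V UMIs of these cells, lowest in mouse 29. Tcrg-C1, at 0.822 to 4.60 CPM, made up 1.56% to 14.0% of the γ constant UMIs of these cells.

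The coreceptor comparison asked whether γ RNA differed between T-like cells with Cd8 RNA (a UMI of Cd8a or Cd8b1 and none of Cd4) and T-like cells with Cd4 RNA (the reverse) in the BCR mice, a split that the choice of genes did not use. Trgv2, Tcrg-C2 and Tcrg-C4 were higher in CPM in the Cd8-positive cells of 5 of 5 mice, with overlapping Poisson intervals in mouse 27. There the share of cells had the other order, at 23.1% against 23.6% for Trgv2 and 5.22% against 8.78% for Tcrg-C2. Trgv2 was at 193, 245, 170 and 104 CPM in the Cd8-positive cells of mice 27, 29, 31 and 33, and at 147 CPM in those of mouse 34. In the Cd4-positive cells it was at 134, 15.9, 74.0, 28.7 and 16.1 CPM in the same order. The arms overlapped across mice because the Cd4-positive cells of mouse 27 exceeded the Cd8-positive cells of mouse 33, and within mice they did not cross.

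In edgeR's quasi-likelihood test with the mouse as a block and Benjamini-Hochberg adjustment over 7002 genes, Trgv2 rose in Cd8-positive cells by a log2 fold change of 2.12 (SE 0.36, adjusted p = 0.00903). Tcrg-C2 rose by 2.23 (SE 0.38, adjusted p = 0.0103) and Tcrg-C4 by 2.35 (SE 0.35, adjusted p = 0.00449) in the same edgeR fit. These were 3 of the 5 genes, and 2.10% of all tested genes were called in either direction (147 genes), 0.586% as higher (41 genes). Trdc and Tcrg-C1 did not pass the filter on low counts: Trdc was at 0.347 and 8.13 CPM in the Cd8-positive cells of mice 33 and 34, the latter in 0.885% of 339 cells, and at 0 in the other 3 mice. In Cd4-positive cells it was at 3.74 CPM in mouse 29, at 0.222 CPM in mouse 33 and at 0 elsewhere.

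**Figure D3:**
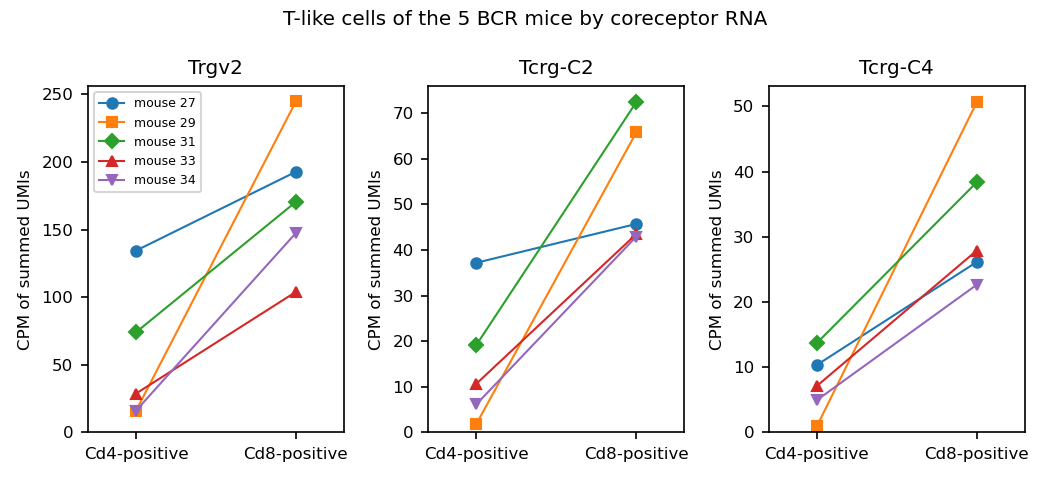
CPM of summed UMIs (linear axes from 0) of Trgv2, Tcrg-C2 and Tcrg-C4 in Cd4-positive and Cd8-positive T-like cells, with a line for each of the 5 BCR mice. Every line rises from Cd4-positive to Cd8-positive cells, and the rise is smallest in mouse 27 for Trgv2 and Tcrg-C2.

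For Tcrg-C2 the Cd8-positive cells ranged from 43.0 to 72.5 CPM and the Cd4-positive cells from 1.87 to 37.2 CPM, without overlap between the arms. For Tcrg-C4 the ranges were 22.6 to 50.6 and 0.936 to 13.7 CPM, also without overlap. Cells were counted as positive on 1 UMI, so cells with both or neither coreceptor RNA were left out, and deeper cells were more often included. Restricted to cells with a Cd3 UMI, the edgeR fit gave log2 fold changes of 2.07, 2.11 and 2.19 for Trgv2, Tcrg-C2 and Tcrg-C4, with adjusted p = 0.0102, 0.0104 and 0.00277. Without mouse 34, edgeR gave adjusted p = 0.0705 for Trgv2 and 0.0748 for Tcrg-C2, and without the block 0.685 and 0.604 (Tcrg-C4 0.131).

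Other gene lists were counted in the same fit. The αβ constant genes (Trac, Trbc1 and Trbc2) had 0 of 3 genes called and a median log2 fold change of 0.11, and the CD3 complex, the signaling part of every T cell receptor, 0 of 4 and 0.26. Of 12 tested cytotoxic and NK-type genes, 6 rose and 0 fell, with a median of 1.48 against 0.01 over all genes tested. They were the killer lectin-like receptors Klrk1 (log2 2.72), Klre1 (2.64) and Klrd1 (2.61), the surface protein gene Ly6c2 (2.51), the granzyme gene Gzma (2.79) and the T-bet gene Tbx21 (1.47). Cd8a, Cd8b1 and Cd4 set the arms and are themselves among the genes called.

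Of 10 tested regulators of receptor loci, such as Il7r, Stat5b, Runx3 and Tcf7, 0 were called in either direction, with a median log2 fold change of -0.16. Of 16 genes typical of IL-17-producing γδ T cells, 2 passed the filter, and both were lower in Cd8-positive cells. They were Tmem176b, which fell by 1.92, and the transcription factor gene Maf, which fell by 1.05 on the log2 scale. The other 14 genes of that list were too rare in these arms to be tested.

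Trdc RNA was low in every nodule. In the T-like cells of mice 29, 31, 33 and 34 it was at 4.45, 5.86, 0.947 and 5.18 CPM. Mouse 27 gave no Trdc UMI, which allows up to 2.47 CPM at 3 counts, and the mean was 3.29 ± 2.64 CPM (SD, n = 5). The UMIs lay in few cells, such as 10 UMIs in 4 cells of mouse 31 and 18 in 4 cells of mouse 34. As a share of cells, mice 29, 31, 33 and 34 were at 0.430%, 0.458%, 0.242% and 0.444%, with overlapping intervals. With T cells taken by at least 2 Cd3 UMIs in place of clusters, the mean was 1.89 CPM. T-like cells with another receptor were at 7.35 CPM (3.80 to 12.8) in mouse 32 and gave no Trdc UMI in mouse 30.

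In all 7 nodules, 87 T-like cells outside the clones held a Trdc UMI and 21644 did not. Of the 87 cells, 40.2% also held RNA of a Trdv segment, against 2.33% of the cells without Trdc. Trdv RNA was more frequent in the Trdc cells of each of the 6 mice that had any. A γ constant UMI was in 18.4% against 6.66%. The order was the other way in mouse 29 (0% against 2.96%) and in mouse 30 (0% of 2 Trdc cells against 5.08%). Trac RNA was in 26.4% against 21.0%. Here the order was the other way in mouse 32 (19.6% against 23.2%) and in mouse 31 (0% of 4 Trdc cells against 30.6%). These shares pool mice, and the Trdc cells were deeper in each mouse, from a median of 1325 against 1188 UMIs in mouse 29 to 10005 against 3523 in mouse 33. Only 1 BCR mouse had at least 20 such cells, so a test of Trdc-positive against Trdc-negative cells over mice could not be made.

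Most of these cells came from mouse 32, with 46, and mouse 29, with 22. In mouse 32, 11 of 46 had a γ constant UMI, 35 of 46 a Cd3 UMI and 9 carried an αβ receptor call. In mouse 29, 7 of 22 had a Cd3 UMI and 0 a γ constant UMI, and 15 held Trdv RNA. The difference between the mice was not tested.

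Genes typical of IL-17-producing γδ T cells were read in the Trdc cells of both mice. In mouse 32, 9 of 16 such genes had intervals above those of the T-like cells without Trdc and 1 was below, against 3.2% above of all genes with a UMI. In mouse 29, 7 of 16 were above and 0 below, against 1.47% of all genes. The scavenger receptor gene Cd163l1 was at 116 against 0.383 CPM in mouse 32 and at 538 against 0.865 CPM in mouse 29. It was in 10.9% and 22.7% of the Trdc cells, so these levels rest on few cells.

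Other members of that list had mixed levels. Il17a, which encodes the cytokine itself, was at 336 against 3.46 CPM in mouse 29, where 9.09% of the Trdc cells held it, and at 24.4 against 4.86 CPM in mouse 32, with overlapping intervals. Maf, a transcription factor gene of the same list, was at 281 against 496 CPM in mouse 32. The Trdc cells of mouse 32 were read more deeply than the rest, with a median of 2572.5 against 1994 UMIs.

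Cytotoxic and NK-type genes were above in the Trdc cells of mouse 32 for 10 of 14 genes, and in those of mouse 29 for 0 of 14. In the 22 Trdc cells of mouse 29, 10 of the 14 genes gave 0 UMIs, each with an upper bound of 124 CPM. A gene at 0 UMIs cannot be above, so these counts do not show a difference between the mice. Gzma in mouse 32 was at 1287 against 628 CPM but in 15.2% against 12.0% of cells, and Gzmb at 1043 against 353 CPM and in 26.1% against 12.8%. Intervals cover counting error only, and each mouse is 1 library.

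Trdv4, a δ variable segment, was read in 152 T-like cells of mouse 29, at 1325 CPM, and Trdc in these cells was at 66.0 against 2.09 CPM in the rest. Of the 16 IL-17-type genes, 7 were above in the Trdv4 cells and Maf was below (190 against 443 CPM), against 3.1% above of all genes with a UMI. Of the 14 cytotoxic and NK-type genes, 1 was above and 4 were below. Cd3e, a subunit that every T cell receptor needs, was at 19.4 CPM in the Trdv4 cells against 249.6 CPM, and Cd3d at 11.7 against 152 CPM. Genes chosen after their values were seen were Il1rl1, the receptor of IL-33, at 994 against 94.3 CPM, the growth factor gene Areg at 2094 against 483 CPM, and Il13 at 62.2 against 2.83 CPM. The Trdv4 cells of mouse 29 held little Cd3 RNA, although they lay in clusters called T-like. In mouse 32, 11 T-like cells outside the clone held Trdv4, with Cd3e at 295 against 341 CPM and Trdc at 516 against 6.78 CPM. Areg was at 443 against 357 CPM in these 11 cells. Il1rl1 and Il13 gave 0 UMIs there, each with an upper bound of 136 CPM. The profile of the mouse 29 cells is therefore given for mouse 29 only.

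Erythroid-like cells were read mainly in the spleen nodule of mouse 32, with 3977 cells at a median of 15406 UMIs. Tcrg-C1 stood there at 259 CPM (255 to 263; 19198 UMIs) and in 58.4% of cells, or 16.1% after the 3874 cells with at least 1000 UMIs were thinned to that number. The median cell held 1 Tcrg-C1 UMI, the 90th percentile 15 and the highest cell 71. Tcrg-C2 was at 0.445 CPM, Tcrg-C4 and Trdc at 0.0405 CPM each and Trgv2 at 0.364 CPM, so Tcrg-C1 made up 99.8% of the γ constant UMIs. The γ constant RNA was thus of another gene than in the T clone of mouse 30.

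The Tcrg-C1 RNA came with almost no V segment. All γ V segments together gave 65 UMIs, or 0.338 per 100 γ constant UMIs, against 347.5 per 100 in the T clone of mouse 30. The joining segment Trgj1, which lies 5′ of Tcrg-C1 at chr13:19210343-19210402, gave 578 UMIs (7.80 CPM) in the erythroid-like cells. Trgj1 gave 5 UMIs in the clone of mouse 32 and none in that of mouse 30.

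**Figure D4:**
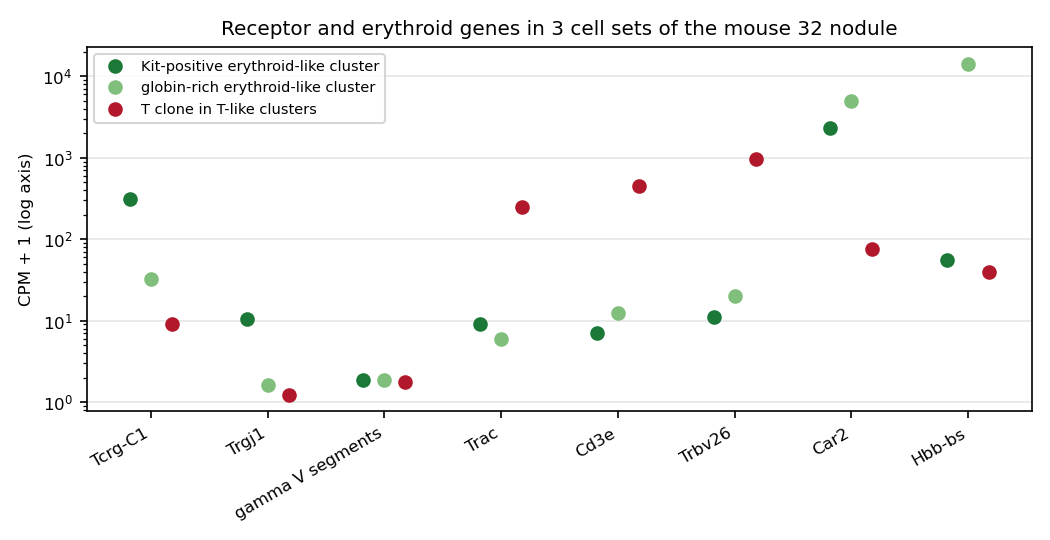
Level of γ, αβ and erythroid genes in the Kit-positive and the globin-rich erythroid-like clusters and in the T clone of mouse 32, as CPM + 1 on a log axis, with 1 point per cell set of summed UMIs. Tcrg-C1 and Trgj1 are highest in the Kit-positive cluster, Trac, Cd3e and Trbv26 in the T clone, and Hbb-bs in the globin-rich cluster.

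Tcrg-C1 RNA was higher in the Kit-positive than in the globin-rich erythroid-like cluster. The cluster rich in Kit, the stem cell factor receptor of progenitors, held 3172 cells, with Tcrg-C1 at 312 CPM, Kit at 126 CPM and the β globin gene Hbb-bs at 54.8 CPM. The cluster rich in globin held 805 cells, with Tcrg-C1 at 31.4 CPM, Kit at 13.1 CPM and Hbb-bs at 14390 CPM. Of 15 erythroid and progenitor genes in the 2 clusters, 3 shared this order: Kit, the carbonic anhydrase gene Car1 (4353 and 2689 CPM) and the progenitor factor gene Gata2 (89.3 and 36.0 CPM). The other 12 were higher in the globin-rich cluster, among them Car2, another carbonic anhydrase gene, at 2304 and 5043 CPM and Rhag, an Rh-associated membrane protein gene, at 289 and 500.3 CPM. These are values of 1 library, without a test.

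The Tcrg-C1 level was as high in erythroid-like cells without a Cd3 UMI or a receptor call. Of the 3977 erythroid-like cells, 233 carried a TCR call and 566 a Cd3 UMI. In the 3389 cells without either, Tcrg-C1 was at 260.3 CPM, and some T cell RNA was left, with Trac at 5.14 CPM (7.61 in all erythroid-like cells). Trbv26, the β segment of the T clone, was at 1.42 CPM in these cells, at 11.8 CPM in all erythroid-like cells and at 972 CPM in the clone.

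Erythroid-like cells of the other nodules were few. Mouse 29 had 86, mostly globin-rich, with 0 Tcrg-C1 UMIs, which allows up to 15.7 CPM at 3 counts. The 77 globin-rich cells among them allow up to 23.1 CPM, against 31.4 CPM in the globin-rich cluster of mouse 32. Mouse 31 had 27, and all its 20 Tcrg-C1 UMIs were in 1 cell of the 5 in the Kit-positive cluster, in which Trgj1 gave 2 UMIs. Mice 33 and 34, whose erythroid-like cells were all globin-rich, gave no Tcrg-C1 UMI, with limits of 44.4 and 23.5 CPM at 3 counts, and the limit of mouse 33 is above the 31.4 CPM of mouse 32. At this depth the level of the globin-rich cluster of mouse 32 was not detectable in mouse 33. Tcrg-C1 in erythroid-like cells is therefore a measurement of mouse 32, and 1 cell of mouse 31.

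Other cells of the mouse 32 library also held Tcrg-C1 RNA. It stood at 25.1 CPM (22.8 to 27.6) in neutrophil-like cells and at 11.5 CPM (7.31 to 17.3) in phagocyte-like cells, while phagocyte-like cells of the other 6 mice gave 0 UMIs. Relative to Car2, which is abundant in the erythroid-like cells, Tcrg-C1 gave 9.18 UMIs per 100 Car2 UMIs in those cells, 10.1 in neutrophil-like cells, 14.0 in phagocyte-like cells, 169 Tcrg-C1 per 1532 Car2 UMIs in the T clone, 11.6 per 100 in T-like cells without a receptor call and 15.9 in T-like cells with another receptor. Within the erythroid-like cells the ratio was 13.5 in the Kit-positive and 0.623 in the globin-rich cluster. The part of free RNA or mixed droplets in the Tcrg-C1 of non-erythroid cells was not tested.

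**Figure D5:**
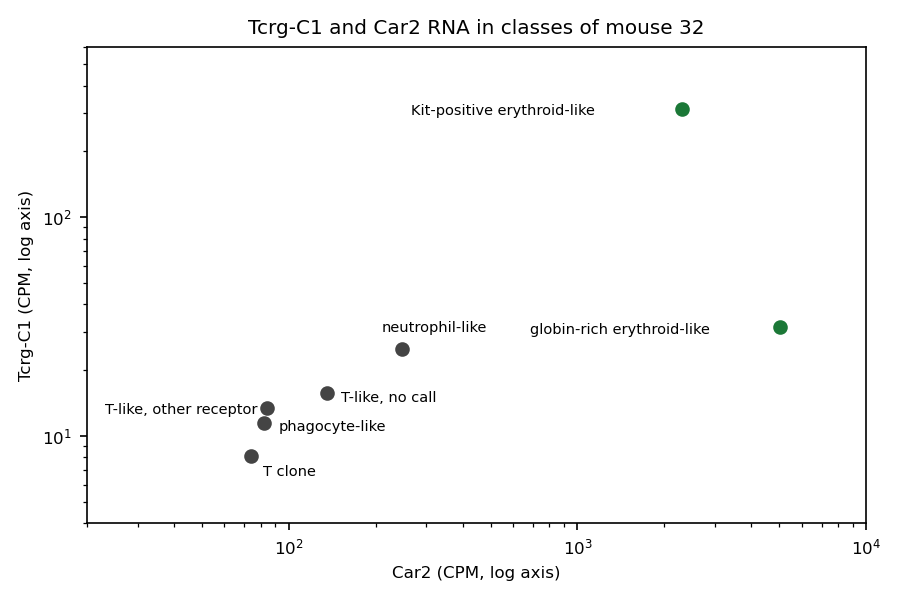
Tcrg-C1 level against Car2 level in CPM, both on log axes, with 1 point for each plotted class of cells in mouse 32 (green, erythroid-like clusters; grey, other classes). B-like cells, with 2 Tcrg-C1 UMIs (15.6 CPM, Car2 at 54.5 CPM), are not plotted. The plotted grey classes lie between 8.16 and 25.1 CPM of Tcrg-C1 and have the same order in both genes, and the globin-rich cluster lies below the Kit-positive cluster in Tcrg-C1 and above it in Car2.

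The γ level of the mouse 32 clone differed by where its cells clustered. Of its 4928 cells, 332 lay outside the T-like clusters, with a median of 18845.5 UMIs and Tcrg-C1 at 171 CPM, and 218 of the clone cells lay in the erythroid-like clusters. The γ constant genes together stood at 50.9 CPM (48.3 to 53.6) in all clone cells and at 8.45 CPM (7.25 to 9.80) in the clone cells of T-like clusters. In mouse 30 the corresponding values did not differ, at 83.3 CPM in both.

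The genes most like each gene were ranked by Pearson's r of log2(CPM + 10) over 40 sets of cells from the 7 libraries, which share libraries and clusters. The ranking covered 8707 genes outside the antigen receptor loci that reached 50 CPM in at least 1 set. Trgv2 was most like Xcl1, a chemokine gene of cytotoxic lymphocytes (r = 0.93), followed by Cd96, Cxcr6, Podnl1 and Cd7 (r = 0.91 to 0.93). Tcrg-C1 was most like Gm15915 (r = 0.98), followed by Cldn13, Slc25a21, the carbonic anhydrase gene Car1 and Add2 (r = 0.93 to 0.95). All 5 were highest in the erythroid-like cells of mouse 32, where most Tcrg-C1 UMIs lay. Their r values therefore mostly restate that 1 set of cells. Trdc, with few UMIs, had lower values, with Gm44174 first (r = 0.76). The summed γ constant genes were most like Spn, the CD43 gene (r = 0.78).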

How the data were processed

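Per the labels and the file headers, the authors deposited raw UMI counts per gene and cell (SeekGene droplet libraries; GRCm38 and mm10 named in the processing notes; aligner not given in the sources used here) and UMI counts per assembled receptor contig. The paper names a 3′ kit for RNA libraries and a 5′ kit for receptor libraries, and which end the nodule RNA libraries read was not tested. The genes and all gene lists were chosen with earlier results of these data known.

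Cells with at least 201 UMIs, 101 genes and at most 10% mitochondrial UMIs were kept (no deposited cell was under 500 UMIs). Doublets were kept, and removed as an alternative. Cells were clustered with scanpy 1.11.5 on 2000 variable genes without antigen receptor genes (30 principal components, Leiden resolution 1), giving 30 clusters. A cluster was named when at least 3 markers of a class were in at least 10% of its cells and at least 1.5-fold above the median cluster. It was left unnamed when at least 0.75 of the markers of a second class passed (B and plasma cells counted as 1 class). Clusters led by more markers of another class, or low in UMIs without a leading marker of their own class, were also left unnamed. The 0.75 limit was set after the clusters were seen. A T clone held all cells with the commonest β chain or with an α chain found in at least 20% of those cells, a rule widened after 1 clone was seen to hold 2 α chains.

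Summed counts were tested with edgeR 4.0.16 (TMM, filterByExpr, mouse as block, two-sided, called at an adjusted p under 0.05). Both arms came from the same mouse, and their deviations correlated at r = 0.36 to 0.72. Each mouse gave 1 library. With the mouse as block, the test measures how much the difference between the arms varied from mouse to mouse. Differences in level between mice are taken out by the block. On simulated counts of 6948 genes in this comparison, 65 of 100 genes changed 2-fold and 84 of 100 changed 4-fold were recovered, with 8 false among 157 calls. The changed genes were drawn only from genes above a minimum mean count. The spread and the mouse effect of the simulation were set beforehand and not estimated from these data, so these rates may not hold for the real comparison. Named genes were the 5 members, other γ and δ locus genes with at least 50 UMIs, genes of the lists and the 5 most similar genes. All 36 locus genes were paired with a RefSeq gene, the Tcrg genes under RefSeq's Trg symbols and Trav13-4-dv7 with Trav13d-4. Sequences of the 5 genes were not analysed here.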

Additional observations from a re-analysis of the deposited data

Results flagged for a closer look

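Among 19 sets of values over the BCR mice that were screened for a value far from the others, 2 stood out, and chance gives about 1 in 20. Both came from the T-like cells of the lung nodule of mouse 29. Trdv4, a δ variable segment, was at 48.9 CPM there and at 0 to 3.29 CPM in the other 4 BCR mice. Tcrg-V6, a γ variable segment, was at 4.74 CPM there and at 0 to 0.863 CPM in the others. The T-like clusters of mouse 29 also held the smallest share of cells with Cd3 RNA (42.9%), and the part of this in both values was not tested.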

How the results depend on the processing

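In the comparison of Cd8-positive with Cd4-positive cells, 147 genes were called (41 higher, 106 lower). DESeq2 called 185, split 72 higher and 113 lower with 272 adjusted p not given. No filter on low counts gave 714, a minimum of 2 coreceptor UMIs 37, and adding the T-like cells with another receptor of the TCR mice 276. Without each BCR mouse in turn, 40 (without mouse 34) to 253 (without mouse 27) genes were called, with 59, 68 and 223 without mice 29, 31 and 33. The fit without the replicate block, that is without pairing the arms of a mouse, called 6 genes. Requiring a Cd3 UMI, an alternative chosen after seeing the data, gave 103. Trgv2 and Tcrg-C2 passed the threshold in 13 of 15 fits each and Tcrg-C4 in 12 of 13 in which it was tested, and the log2 fold changes were positive in all of them (1.72 to 2.53, 1.87 to 2.64 and 1.95 to 2.66). The comparison of Trdc-positive with Trdc-negative cells and its alternatives could not be run.

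The γ constant level of the mouse 32 clone was 50.9 CPM in all clone cells and 8.45 CPM in its T-like clusters. That of the erythroid-like cells was 259 CPM, and 267 CPM with at most 5% mitochondrial UMIs. The Trdc mean was 3.29 CPM, 2.64 to 4.11 CPM with each mouse left out, and 1.89 CPM with T cells taken by at least 2 Cd3 UMIs. Libraries of 1 mouse per tissue and the few Trdc UMIs limit what these data can show. The cause of these shifts was not tested.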
